A study of Mus musculus with 48 samples.

Results

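The genes described are 8 mouse genes of cone phototransduction, Arr3, Opn1sw, Opn1mw, Gnat2, Pde6h, Pde6c, Gngt2 and Cnga3. They were chosen by symbol, and all 8 were found among the 54331 genes of the deposited tables. Cones are the photoreceptors of daylight and colour vision. In a cone, light activates an opsin, the opsin activates the G protein transducin, transducin activates a phosphodiesterase, and the fall in cyclic GMP closes a cation channel. Rods use a parallel set of proteins, mostly encoded by separate paralogous genes. Retinal ganglion cells (RGCs), whose axons carry the signal to the brain, are not known to use this cascade.

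The study sequenced poly-adenylated RNA of RGC axons in their brain targets and RNA from the eye, in 48 libraries. The 12 eye libraries were all labelled P14 (postnatal day 14) and uninjured. They were wild-type eye cells from fluorescence-activated cell sorting (FACS, n = 3), FACS cells labelled fmr1ko (n = 3), wild-type immunopanned RGCs (n = 3), and wild-type immunopanned RGCs with RNA captured by its ethynyl uridine (EU) label (n = 3). EU is a uridine analogue that was injected into the vitreous and enters newly made RNA. The 36 brain libraries came from the superior colliculus (SC) or the lateral geniculate nucleus (LGN), the main brain targets of RGC axons. EU-captured SC libraries were wild type at P10 (n = 3), P10 with a chase of 4 days (n = 3), P14 (n = 5) and 8 weeks (n = 3), labelled fmr1ko at P14 (n = 3), or labelled sarm1ko, axotomized, at P14 with a chase of 7 days (n = 3). Ribosome-bound RNA was captured from SC axons by axon-TRAP (translating ribosome affinity purification) in wild-type mice at P10 (n = 3) and P14 (n = 5) and in mice labelled fmr1ko at P14 (n = 3). LGN libraries were wild type at P14, from EU capture (n = 2) and axon-TRAP (n = 3). Per the labels' protocol, SC tissue of 3 animals was pooled. No label says which libraries came from separate animals, so p-values measure only the spread between these libraries, which may be technical.

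Total estimated counts ran from 12161260 to 48263706 in eye libraries and from 2558141 to 39832668 in brain libraries. The library labelled SC axon-TRAP fmr1ko replicate 2 held marker genes that went against its labels, with a summed 78267 TPM (a transcript abundance corrected for length and depth) of 13 rod genes, against 70.1 and 131 TPM in replicates 1 and 3. Its 8 oligodendrocyte genes summed to 16.8 TPM, against 3829 and 2487 TPM. Its profile correlated at 0.90 with the FACS eye libraries and at 0.55 with its own group. Fmr1 itself did not separate the genotypes. Fmr1 was at 21.2, 13.01 and 5.48 TPM in wild-type FACS libraries and at 26.6, 2.58 and 2.96 TPM in those labelled fmr1ko. In SC EU libraries it was at 12.2, 2.27 and 15.4 TPM in those labelled fmr1ko, and between 0 and 6.99 TPM in the 5 wild-type P14 libraries. "Labelled fmr1ko" below therefore means the label only. Sarm1 was at 2.50, 7.63 and 0.79 TPM in the libraries labelled sarm1ko, against a median of 25.4 TPM in wild-type P14 SC EU libraries.

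The labelled cell type was also checked in the eye libraries. In the 3 wild-type FACS libraries 13 rod genes summed to between 69977 and 141474 TPM, and 16 RGC genes to between 145 and 221 TPM. The 16 RGC genes summed to between 34.1 and 106 TPM in immunopanned libraries without EU capture, below every wild-type FACS library. In immunopanned EU libraries they summed to between 187 and 401 TPM, which overlapped wild-type FACS libraries. "Immunopanned RGCs" therefore means the label only. Immunopanned EU replicate 1 held 74703 TPM of rod genes, against 3390 and 5897 TPM in replicates 2 and 3. Immunopanned replicates 2 and 3 held 188012 and 168083 TPM of 9 lens crystallin genes, and replicate 1 held 7.73 TPM. Replicate 1 correlated at 0.13 with the rest of its group.

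Promoters are shown for 3 members whose windows overlap no annotated exon, to show where a photoreceptor motif lies in them or is missing. The capitals mark TAATC, the core of the sequence bound by the photoreceptor homeodomain factor CRX. Each window is the 150 bases before a RefSeq start on GRCm38.p6. That start lies inside the longer GENCODE gene span, given below, for Opn1sw and Pde6h. The windows are chrX:100605347-100605496 on the plus strand for Arr3, chr6:29380514-29380663 on the minus strand for Opn1sw and chr6:136954373-136954522 on the plus strand for Pde6h.
Arr3: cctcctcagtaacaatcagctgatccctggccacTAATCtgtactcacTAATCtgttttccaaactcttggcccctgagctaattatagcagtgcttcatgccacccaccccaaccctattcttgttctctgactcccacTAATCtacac
Opn1sw: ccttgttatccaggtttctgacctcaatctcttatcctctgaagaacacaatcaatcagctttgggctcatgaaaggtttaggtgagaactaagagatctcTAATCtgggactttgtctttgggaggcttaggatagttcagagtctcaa
Pde6h: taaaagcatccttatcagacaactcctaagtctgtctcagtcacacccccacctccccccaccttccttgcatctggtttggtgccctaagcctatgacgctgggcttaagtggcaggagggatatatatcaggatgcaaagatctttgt

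Promoter entries were found for 6 of the 8 members, in windows of 250 bases before to 50 bases after the start. TAATC was searched on both strands. It occurred in 3 of the 6 members, Arr3, Opn1sw and Gnat2, and in 22.0% of 32817 mouse promoters of that length. It also occurred in all 4 rod paralogs with an entry, Pde6b, Gngt1, Cnga1 and Sag. Arr3 had 3 matches, beginning 116, 102 and 10 bases before its RefSeq start. The longer TAATCC, which contains TAATC, occurred in 1 member, Gnat2, and in 7.06% of promoters. AGGTCA, a nuclear receptor half-site, occurred in 1 member, Opn1sw, and in 16.3% of promoters. A match describes these letters only.

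The opsins were the highest members in wild-type FACS libraries, and they are given on the TPM scale, which corrects for length. Opn1sw (chromosome 6, 29376671 to 29388468, GRCm38), the short-wavelength opsin, was at 239, 140 and 186 TPM. Opn1mw (chromosome X, 74127464 to 74150760), the medium-wavelength opsin, was at 46.3, 65.5 and 111 TPM. The opsins did not overlap in these 3 libraries. Opn1sw shares 397 exonic bases with Calu on the other strand, and the strand setting of the counting is not given in the sources used here. Calu was at 54.6, 61.4 and 46.6 TPM in the same libraries, and its part in the Opn1sw level was not tested.

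Gngt2, Arr3 and Gnat2 came next by mean level, before Pde6h, Pde6c and Cnga3. Gngt2 (chromosome 11, 95837216 to 95845734), the cone transducin gamma subunit, was at 43.1, 36.7 and 39.3 TPM. Gnat2 (chromosome 3, 108092789 to 108101432), the cone transducin alpha subunit, was at 15.4, 24.9 and 40.4 TPM. Its range overlapped that of Gngt2. Pde6h (chromosome 6, 136923832 to 136968865), the inhibitory subunit of the cone phosphodiesterase, was at 14.6, 7.05 and 10.6 TPM. Pde6c (chromosome 19, 38132781 to 38183958), the catalytic subunit, was at 6.85, 12.7 and 7.50 TPM. These neighbours in the order overlapped.

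Arr3 (chromosome X, 100605497 to 100618493), the cone arrestin that ends opsin signalling, was at 30.9, 29.6 and 33.1 TPM, the narrowest relative spread of the 8. Cnga3 (chromosome 1, 37214434 to 37263384), the alpha subunit of the cone cyclic nucleotide-gated channel, was at 0.226, 1.08 and 0.998 TPM. Cnga3 lay below every other member in each of these libraries.

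**Figure D1:**
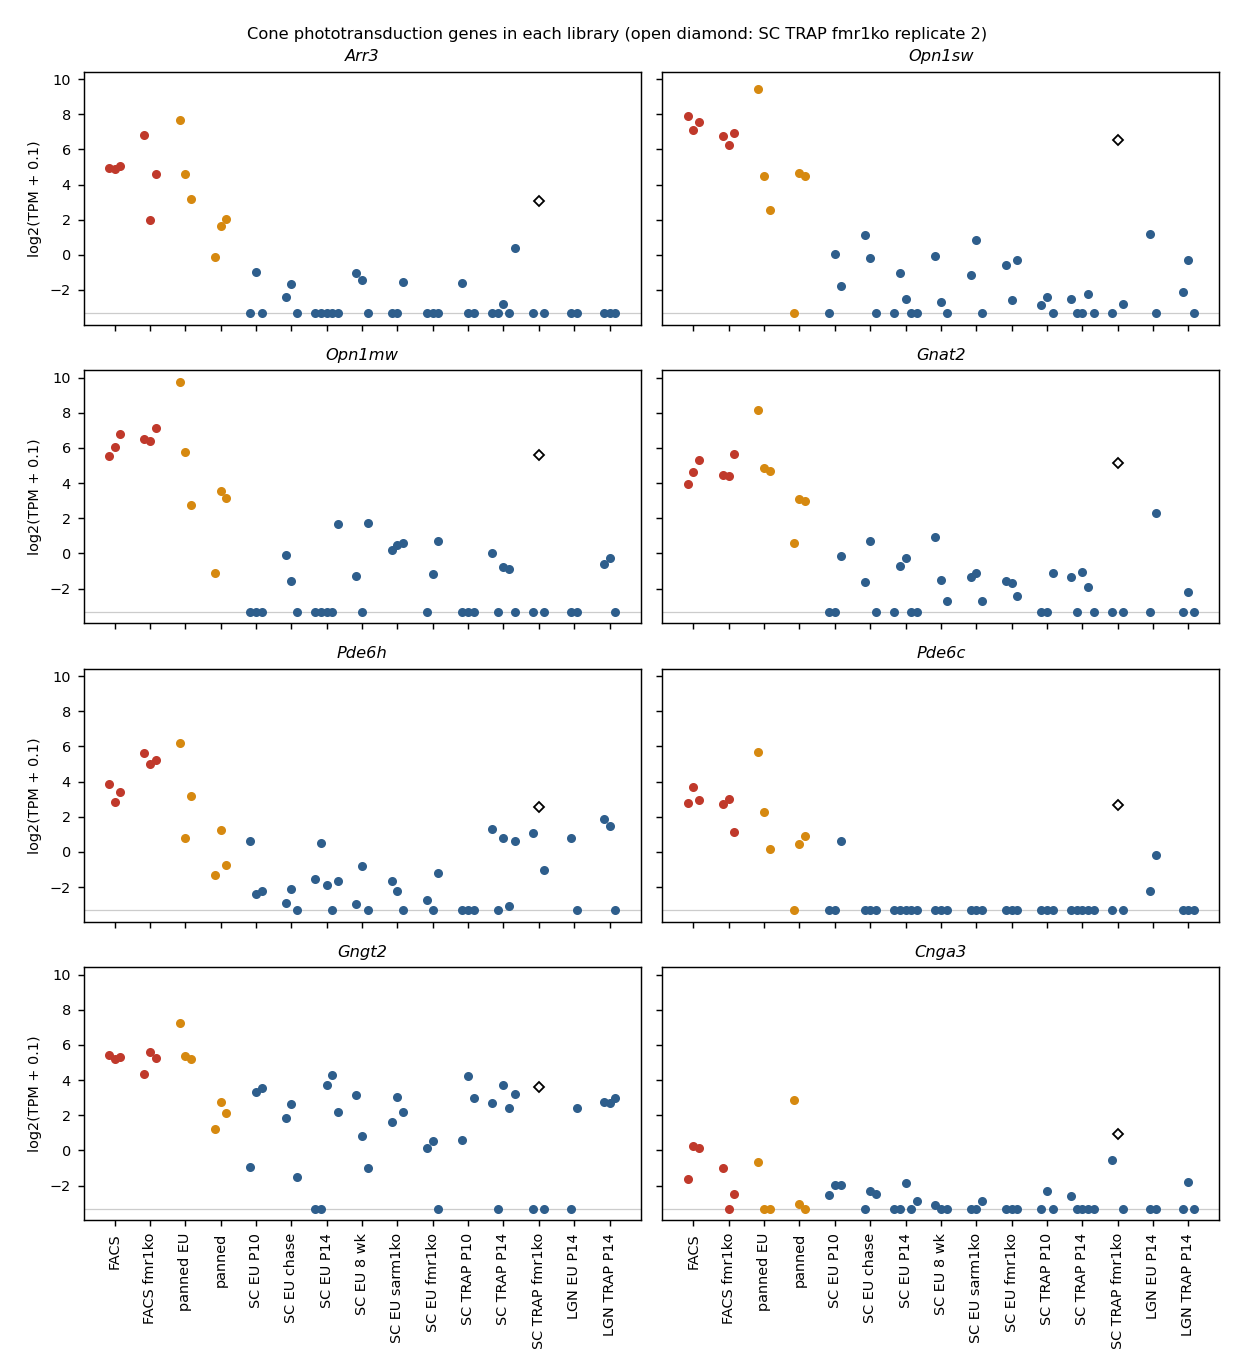
Level of each member as log2(TPM + 0.1) (y axis) in each of 48 libraries, grouped along the x axis (red FACS eye, orange immunopanned eye, blue SC or LGN). Points are libraries and the grey line is 0 TPM. Brain libraries sit near the line except for Gngt2 and for the open diamond, SC axon-TRAP fmr1ko replicate 2.

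In immunopanned EU libraries the members varied with the library more than in FACS libraries. Opn1sw was at 693, 22.7 and 5.71 TPM and Opn1mw at 866, 55.0 and 6.52 TPM. Gnat2 was at 290, 28.9 and 26.0 TPM, and Gngt2 at 150, 42.0 and 36.5 TPM. Replicate 1, with the high rod sum, was highest for all 8 members. Arr3 was at 207, 24.1 and 8.91 TPM, Pde6h at 73.0, 1.61 and 9.07 TPM and Pde6c at 50.5, 4.80 and 1.02 TPM. Cnga3 was at 0.53 TPM in replicate 1 and at 0 in replicates 2 and 3.

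In immunopanned libraries without EU capture 7 of the 8 members lay below EU replicate 1 in each library. Opn1sw was at 0, 25.0 and 21.9 TPM, Opn1mw at 0.35, 11.6 and 8.71 TPM and Gngt2 at 2.21, 6.63 and 4.35 TPM. In TPM both opsins overlapped the EU libraries, and Gngt2, Arr3 and Gnat2 did not. The share of all genes without overlap in TPM was not counted. On log2(TPM + 1), the median log2 fold change with EU capture was 3.39 over 7 members and 1.52 over all genes tested (limma-trend). Higher TPM with EU capture was therefore shared by most genes. In normalised counts the groups overlapped for every member, while 18.8% of all genes tested did not overlap. Replicate 1 was lowest for 7 of the 8 members. Cnga3 was the exception, at 7.30 TPM in replicate 1 and at 0.02 and 0 TPM in replicates 2 and 3. In TPM, the 7.30 of replicate 1 was the highest Cnga3 level among the 48 libraries, from 46 counts. In CPM, here counts scaled by library totals alone, the order was different. Replicate 1 was at 3.78 CPM, below SC axon-TRAP fmr1ko replicate 2, at 5.10 CPM from 203 counts.

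Cone RNA was a smaller share of rod RNA in each FACS library than in any immunopanned library. The members summed to 0.567%, 0.401% and 0.303% of the rod sum in wild-type FACS libraries, and to 3.12%, 5.28% and 1.59% in immunopanned EU libraries. The groups did not overlap. The log2 ratio was lower in FACS libraries (difference -2.86, exact two-sided permutation test, p = 0.1, adjusted 0.267 over 32 cone to rod tests, 3 libraries against 3). With 3 libraries a group, 0.1 is the smallest p this test can give. Against immunopanned libraries without EU capture, at 13.3%, 1.25% and 1.19%, the difference was -2.73 (exact permutation p = 0.1, adjusted 0.267), and -1.58 without immunopanned replicate 1. In bulk samples, fewer cells of a type and less RNA per cell cannot be told apart.

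**Figure D2:**
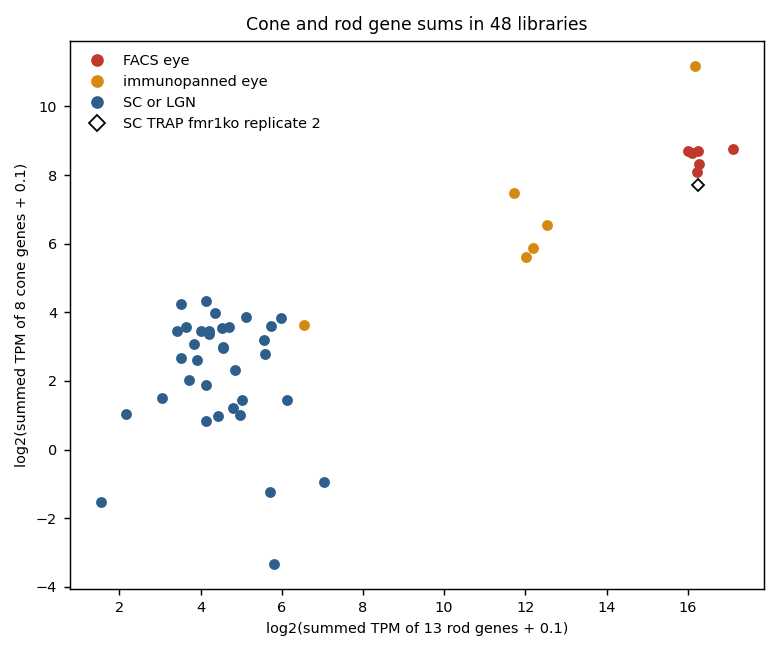
Summed TPM of the 8 cone genes (y axis) against that of 13 rod genes (x axis), both as log2(sum + 0.1), with 1 point a library. The open diamond, SC axon-TRAP fmr1ko replicate 2 at 78267 TPM of rod genes, lies beside the FACS eye libraries.

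Of 6 pairs of cone and rod paralogs, 3 did not overlap between FACS and immunopanned EU libraries. Gnat2 was at 0.122%, 0.180% and 0.165% of Gnat1, its rod counterpart, in wild-type FACS libraries, and at 1.82%, 4.20% and 2.63% in immunopanned EU libraries (log2 difference -4.14, exact permutation p = 0.1, adjusted 0.267). Arr3 against the rod arrestin Sag differed by -3.46 and Pde6h against the rod inhibitory subunit Pde6g by -3.04, again without overlap. Pde6c against Pde6a overlapped (difference -1.62, exact permutation p = 0.4, adjusted 0.557).

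Across all genes, none of the 8 members was called between FACS and immunopanned EU libraries (edgeR quasi-likelihood test, adjusted p under 0.05; background 0%, 0 of 15694 genes, with 2604 at an unadjusted p under 0.05). The fitted log2 fold changes had a median of -1.93 over the members and 0.11 over all genes tested. The largest was that of Gnat2, -2.71 ± 0.88 (SE; edgeR adjusted p = 0.187). DESeq2 called Gnat2 (adjusted p = 0.0440) and Gngt2 (adjusted p = 0.000264) lower in FACS libraries, where it called 5.14% of genes lower. Without immunopanned EU replicate 1 the members' median was -0.37, against 0.40 over all genes. Groups did not overlap for 2 members, Gnat2 and Gngt2, against 30.5% of all genes.

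None of the 8 was called between FACS and immunopanned libraries without EU capture (edgeR; background 0%, 0 of 15489 genes, with 2676 at an unadjusted p under 0.05). The direction depended on the scaling. The median log2 fold change of the members was -0.96 with TMM factors and 1.97 with library totals alone, while the median of all genes moved from -0.08 to 2.49. Without immunopanned replicate 1, edgeR called Gnat2 (-2.33, adjusted p = 0.0212) and Pde6c (-1.57, adjusted p = 0.0169) lower in FACS libraries, with 14.2% of genes called lower. Limma-trend on log2(TPM + 1) called 7 members higher, where it called 57.6% of all genes higher. Between the immunopanned groups themselves, edgeR called 0 of 7 members tested (background 0%, 0 of 13360 genes, with 1183 at an unadjusted p under 0.05). Limma-trend called Gngt2 higher with EU capture (adjusted p = 0.0420; background 12.5% called higher). Without EU replicate 1 the members' median log2 fold change between these groups went from 1.10 to -0.37.

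The balance of the opsins was compared between eye groups. Opn1sw stood at 5.17, 2.14 and 1.68 times Opn1mw in wild-type FACS libraries. In FACS libraries labelled fmr1ko it stood at 1.16, 0.892 and 0.901 times, without overlap (log2 difference -1.43, exact permutation p = 0.1, adjusted 0.2 over 4 opsin tests, n = 3 and 3). Immunopanned EU libraries stood at 0.801, 0.412 and 0.876 times, also without overlap with wild-type FACS libraries (log2 difference 1.997, exact permutation p = 0.1, adjusted 0.2). Immunopanned libraries without EU capture overlapped them, at 0, 2.14 and 2.52 times.

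**Figure D3:**
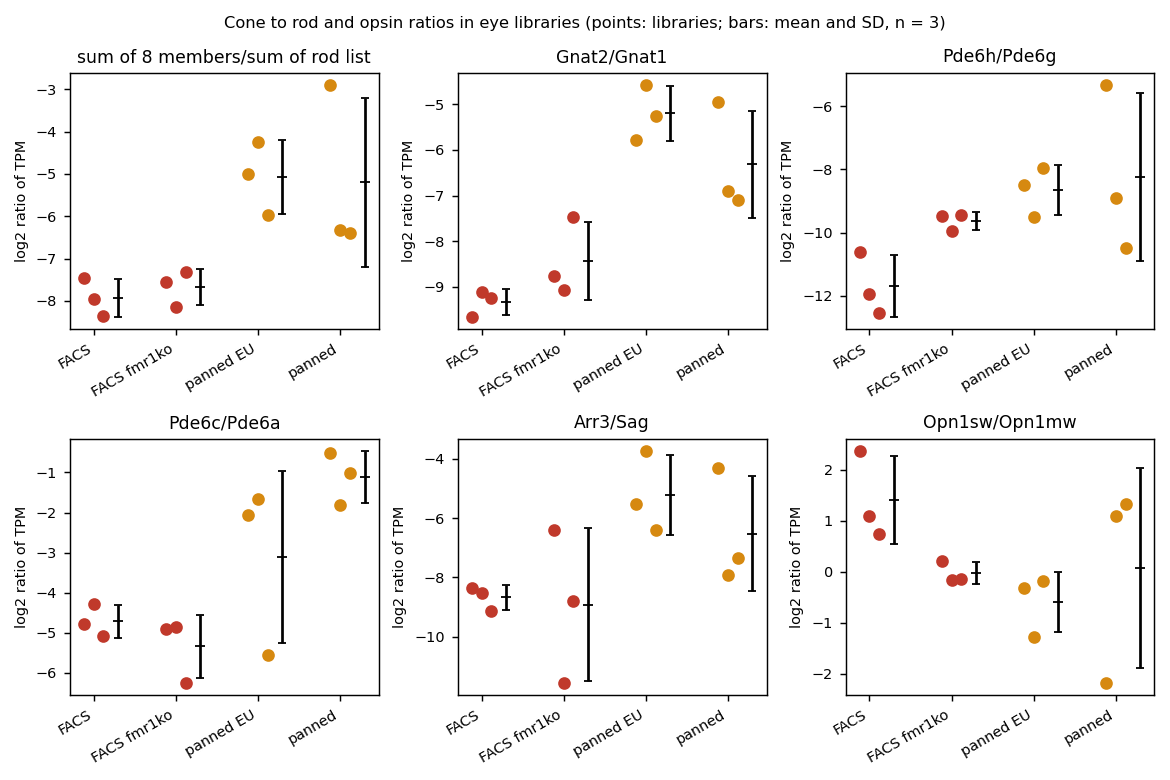
Log2 ratios of TPM (y axes) in the 4 eye groups (x axes): the cone sum against the rod sum, 4 cone genes against their rod paralogs, and Opn1sw against Opn1mw. Points are libraries and bars are the mean and SD (n = 3). The cone to rod sum is lowest in FACS libraries, at 0.303% to 0.628%.

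Between FACS libraries labelled fmr1ko and wild type, Pde6h had the largest fitted fold change. It was at 49.9, 31.4 and 37.3 TPM in those labelled fmr1ko and at 14.6, 7.05 and 10.6 TPM in wild type, without overlap. Its log2 fold change was 2.14 ± 0.46 (SE), which was not called by edgeR (adjusted p = 0.136) and was called by DESeq2 (2.17, adjusted p = 0.000343). Over the alternatives its adjusted p ran from 0.000343 to 0.444. The ratio of Pde6h to Pde6g was between 0.0168% and 0.0634% in wild type and between 0.101% and 0.144% in those labelled fmr1ko (log2 difference 2.08, exact permutation p = 0.1, adjusted 0.267). Gnat2 against Gnat1 did not overlap either (log2 difference 0.90, exact permutation p = 0.1, adjusted 0.267). Pde6h shares 136 exonic bases with Arhgdib on the other strand. Arhgdib was at 0, 2.84 and 6.36 TPM in wild type and 7.91, 5.501 and 2.42 TPM in those labelled fmr1ko, and its part was not tested.

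edgeR called 0 of the 8 members in that comparison (background 0.0396%, 6 of 15165 genes, with 1904 at an unadjusted p under 0.05), and DESeq2 called 1, Pde6h (background 3.49% called higher). Pde6h was the 1 member of 8 whose groups did not overlap in normalised counts, against 22.3% of all genes. Opn1sw was at 107, 75.9 and 125 TPM in libraries labelled fmr1ko (log2 fold change -0.69 ± 0.33, edgeR adjusted p = 0.465). Arr3 was at 115, 3.84 and 24.1 TPM there, so its 3 libraries spanned the wild-type values on both sides. Cnga3, at 0.395, 0 and 0.079 TPM there, had a fold change nearly as large as that of Pde6h, but lower. Its log2 fold change was -2.02 ± 1.75 (edgeR adjusted p = 0.769), and the groups overlapped. Of 6 other cone genes none was called, with a median log2 fold change of -0.83, and of 13 rod genes none, with a median of -0.18.

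In the brain 7 of the 8 members were near 0, and Gngt2 was not. Leaving out SC axon-TRAP fmr1ko replicate 2, 35 libraries with 625562849 counts in all remained. Pde6c had counts in 3 of them, Arr3 in 9, Cnga3 in 13, Opn1mw in 15, Gnat2 in 20, Opn1sw in 21 and Pde6h in 24. The median level of each of these 7 was at most 0.12 TPM. The highest single level among them was 4.84 TPM, for Gnat2 in LGN EU replicate 2. The floors used below for counts of 0 describe counting error alone, because no molecular identifiers are stated.

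The difference between eye and SC libraries was tested at P14 with wild-type SC replicates 3 to 5. In the wild-type P14 SC axon-TRAP libraries 7 Müller glia genes summed to a mean of 15893 TPM, and 16 RGC genes to 2958 TPM. In SC EU libraries these means were 5885 and 4451 TPM. The part of RNA from cells other than RGCs was not tested. Against immunopanned EU libraries, SC EU libraries were lower in 7 of the 7 members tested (edgeR; background 11.3% called lower, 1749 of 15540 genes). Cnga3 did not pass the filter on low counts. All but Gngt2 passed it through their eye libraries, since Gngt2 alone passed when SC axon-TRAP and SC EU libraries were compared at P14, so the count is a description, and nothing is read from it against the background. Arr3 was at 0 counts in the 3 SC libraries and Pde6c likewise, at least 2326-fold and at least 1311-fold lower than the eye mean, with the floor of 3 counts taken over the group. Without immunopanned EU replicate 1 these bounds were 929-fold and 427-fold, and leaving out each library in turn they ran from 929 to 3235 and from 427 to 1895. Opn1sw had 3 counts in these SC libraries and 24945 in the eye libraries (log2 fold change -13.04 ± 2.03, edgeR adjusted p = 0.00492). For these 7 members the groups did not overlap, against 46.8% of all genes, and nothing is read from this either. The call of Opn1mw was lost without SC replicate 3 or 4, without immunopanned EU replicate 1 and with no filter, and its adjusted p over the alternatives ran from 0.000325 to 0.168. That of Gngt2 was lost without any 1 library other than immunopanned EU replicate 3, and with library totals alone, no filter or a replicate block (adjusted p 0.000159 to 0.163).

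Against FACS libraries, SC axon-TRAP libraries were lower in 7 of 8 members (edgeR; background 22.1% called lower, 3802 of 17186 genes). Here too, members other than Gngt2 passed the filter through the eye libraries, and the count is a description. Opn1sw was at 257 ± 88.6 CPM (normalised counts scaled to library size, SD, n = 3) in FACS and 0.0395 ± 0.0684 CPM in SC (log2 fold change -12.61 ± 0.93, edgeR adjusted p = 0.000237). Pde6c and Cnga3 were at 0 counts in SC, at least 499-fold and at least 59.3-fold lower. Leaving out each library in turn, these bounds ran from 320 to 560 and from 38.0 to 80.8, both lowest without SC replicate 5. The exception was Gngt2, at 6.98 ± 1.68 CPM against 1.77 ± 0.94 CPM (log2 fold change -1.98 ± 0.74, edgeR adjusted p = 0.0632), which DESeq2 called (adjusted p = 0.00546; background 17.5% called lower). Groups did not overlap for 8 of the 8 members, against 63.9% of all genes. Because of the same filter, nothing is read from this count against that share. All 13 rod genes were called lower in the same comparison. Only 4 of the 13 passed the filter between SC axon-TRAP and SC EU libraries at P14, so this count is also a description.

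Gngt2 was the member with counts in most brain libraries, 28 of 35, with a median of 4.49 TPM and a maximum of 19.9 TPM. It was at 0, 0, 13.2, 19.9 and 4.43 TPM in wild-type P14 SC EU libraries and at 6.41, 0, 13.1, 5.25 and 9.19 TPM in P14 SC axon-TRAP libraries. The groups overlapped (log2 fold change -0.72 ± 0.97, edgeR adjusted p = 0.67). Gngt2 shares 234 exonic bases with Abi3, a microglial gene on the other strand. Abi3 was at 0, 4.07, 4.43, 1.25 and 2.59 TPM in those EU libraries and at 11.7, 13.7, 2.66, 2.34 and 6.74 TPM in those TRAP libraries. The 14 microglial genes summed to between 306 and 618 TPM and between 1007 and 1785 TPM, against 13.9 to 16.4 TPM in wild-type FACS libraries. Their part in the Gngt2 level was not tested.

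**Figure D4:**
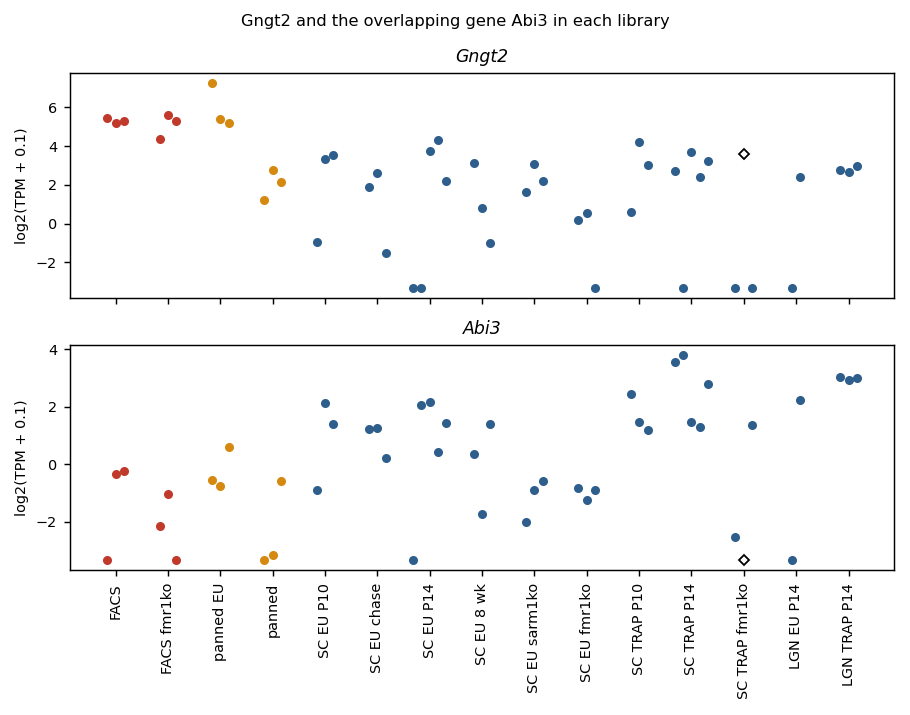
Levels of Gngt2 (top) and of Abi3, which overlaps it on the other strand (bottom), as log2(TPM + 0.1) (y axes) in each library by group (x axis; red FACS eye, orange immunopanned eye, blue SC or LGN, open diamond SC axon-TRAP fmr1ko replicate 2). Gngt2 reaches 19.9 TPM in the brain.

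In SC EU libraries labelled fmr1ko, Gngt2 was at 1.02, 1.34 and 0 TPM, below the 3 wild-type libraries fitted with them. The other 2 wild-type libraries were at 0, and with all 5 the groups overlapped (edgeR adjusted p = 0.772). With 3, its log2 fold change was -2.98 ± 1.36 (edgeR adjusted p = 0.221; background 1.16%, 192 of 16546 genes called), and limma-trend on log2(TPM + 1) called it (adjusted p = 0.00308; background 1.76% called lower). The lack of overlap was shared by 32.1% of all genes.

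Comparisons by age, chase, target, capture and label gave no member called by edgeR, and between 0 and 3 members passed the filter in each of the 11 comparisons within the brain. Gngt2 was at 0.418, 9.89 and 11.5 TPM in P10 SC EU libraries, at 3.56, 6.02 and 0.248 TPM after the chase of 4 days and at 8.69, 1.65 and 0.403 TPM at 8 weeks. These ranges overlapped. In axon-TRAP libraries it was at 1.42, 18.5 and 7.96 TPM in P10 SC and at 6.63, 6.34 and 7.84 TPM in LGN. The share of all genes called was 2.5% for P14 against P10 in EU libraries and 0% in TRAP libraries, 0% for 8 weeks against P14, 0.00597% for the chase, 14.3% and 17.7% for TRAP against EU at P14 and P10, and 0% for SC against LGN.

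The libraries labelled sarm1ko differed from wild type in genotype, axotomy and the chase of 7 days at once, so these cannot be told apart. Opn1mw was at 1.04, 1.29 and 1.38 TPM, against 0, 0 and 3.06 TPM in wild-type replicates 3 to 5, which overlapped (log2 fold change 1.12 ± 1.73, edgeR adjusted p = 0.625; background 37.4%). Without wild-type replicate 5 edgeR called Opn1mw higher (adjusted p = 0.00996; background 30.4% called higher). Opn1sw was at 0.353, 1.68 and 0 TPM, and DESeq2 called it higher (adjusted p = 0.0412; background 16.4% called higher).

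The library labelled SC axon-TRAP fmr1ko replicate 2 carried counts of all 8 members. Opn1sw was at 93.8 TPM, Opn1mw at 48.6 TPM, Gnat2 at 34.6 TPM, Gngt2 at 12.2 TPM and Arr3 at 8.17 TPM. Pde6c was at 6.31 TPM, Pde6h at 5.74 TPM and Cnga3 at 1.83 TPM. Opn1sw, Gngt2, Arr3, Pde6c and Pde6h lay below every wild-type FACS library, and Cnga3 above every wild-type FACS library. Against FACS libraries labelled fmr1ko, Opn1sw, Arr3, Pde6c and Gnat2 lay within the range. Opn1mw, Gngt2 and Pde6h lay below that range and Cnga3 above it. Gngt2 lay within the range of other brain libraries. In replicates 1 and 3 the members summed to 2.62 and 0.42 TPM. Between axon-TRAP libraries labelled fmr1ko and wild type, edgeR called no member with replicate 2 (background 0%, 0 of 16115 genes called, 2830 at an unadjusted p under 0.05) or without it (348 genes called). Gngt2 alone passed the filter of edgeR with replicate 2. DESeq2, fitted without that filter, called Cnga3 higher with replicate 2 (adjusted p = 0.0341; background 7.69% called higher). Cnga3 had 203 counts in replicate 2, 35.3 in replicate 1 and 0 in replicate 3.

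Across the 12 eye libraries the members varied together, except Cnga3. On log2(TPM + 1), Pearson's r between pairs of the other 7 ran from 0.67 to 0.93, and that of Cnga3 with them from -0.43 to -0.22. Without immunopanned replicate 1, Cnga3 correlated with them at 0.28 to 0.64. The median r of 8898 genes with the mean of the members was 0.71, so most genes shared this variation. The 12 libraries differed in preparation and depth, and the part of either was not tested. The most alike genes were Eif2s1 (r = 0.94), Lurap1l, Map6, Pafah1b2 and Akap11. Kcne2, from the list of other cone genes, was the third most like Arr3 (r = 0.93).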

How the data were processed

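The deposited tables hold estimated counts and TPM per Ensembl gene for 48 libraries. Salmon and the mm10 build are named in the submitters' processing notes. No version, annotation release, trimming step or strand setting is stated in the sources used here. The deposited TPM values are scaled per library and were used as levels. The authors' estimated counts were rounded for tests. Symbols and positions came from GENCODE M21 (GRCm38), matching 54097 of 54331 genes.

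The 17 comparisons were fitted separately with edgeR 4.0.16 (R 4.3.3) with filterByExpr, TMM factors and the quasi-likelihood test, with Benjamini-Hochberg adjustment over all genes tested and a threshold of 0.05. Wild-type P14 SC groups entered as replicates 3 to 5, or 1 and 2 against LGN. Ratios used log2(TPM + 0.1) and exact two-sided permutation tests over libraries. Alternatives used DESeq2 1.42.0, limma 3.58.1 on log2(TPM + 1), other scalings, no filter, a replicate block and leaving out each library. The scripts were tested on simulated counts.

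All 8 members were named in the text, with their rod paralogs, the other cone genes and the genes most alike by correlation. The members and lists were chosen with earlier results of these data known. Lists summed per library also covered bipolar, amacrine, horizontal and Müller cells and retinal pigment epithelium.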

Additional observations from a re-analysis of the deposited data

Results flagged for a closer look

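In the groups of 5 libraries, Dixon's test set 7 of 20 sets of values apart. Chance alone does this in about 1 group in 20 for normally distributed values. Many of these sets hold zeros, so the 7 of 20 cannot be set against that rate. Arr3 in SC EU libraries and Pde6c in both groups were at 0 in all 5 libraries, and such sets cannot be set apart. Where 4 of 5 libraries are at 0, the test sets the other apart whatever its size. Among wild-type P14 SC EU libraries, Opn1mw was at 3.06 TPM in replicate 5, from 41.0 counts, and at 0 in the other 4. Opn1sw was at 0.397 TPM and Pde6h at 1.33 TPM in replicate 2, from 2 and 3 counts. Pde6h had 19 and 20 counts in replicates 3 and 5, at lower TPM. Cnga3 was at 0.176 TPM in replicate 3, from 11 counts. Among wild-type P14 SC axon-TRAP libraries, Arr3 was at 1.23 TPM in replicate 5, from 10 counts, Cnga3 at 0.0642 TPM in replicate 1, from 4 counts, and the rod genes at a sum of 55.7 TPM in replicate 2.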

How the results depend on the processing

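The number of members called moved by over 1.5 times under 9 alternatives. By less, it ran from 5 to 7 in SC EU against the eye (7 in edgeR) and from 6 to 8 in SC axon-TRAP against the eye (7). DESeq2 called 1 member in FACS fmr1ko against wild type, 2 in FACS against immunopanned EU, and 1 each in SC sarm1ko and SC axon-TRAP fmr1ko, where edgeR called 0. The filter of edgeR left out Opn1sw in SC sarm1ko and Cnga3 in SC axon-TRAP fmr1ko, the members DESeq2 called there. Limma-trend called 7 in FACS against immunopanned, 1 in immunopanned EU against immunopanned and 1 in SC EU fmr1ko. Leaving out 1 library gave 0 to 2 in FACS against immunopanned and 0 to 1 in SC sarm1ko, the 1 without wild-type replicate 5. The cause was not tested.

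Among the fold changes followed gene by gene, those that missed the threshold changed sign in 11 cases. In FACS against immunopanned, followed by its median, positive members went from 0 of 8 to 8 with library totals, 7 with limma-trend and 1 to 3 on leaving out 1 library, and in immunopanned EU against immunopanned from 7 of 7 to 2 without EU replicate 1. In FACS fmr1ko against wild type, limma-trend gave -0.41 for Arr3 and -0.23 for Gngt2, and leaving out 1 library gave -0.55 to 1.57 for Arr3, -0.061 to 0.53 for Gngt2 and -0.81 to 0.048 for Pde6c. In FACS against immunopanned EU, Opn1sw was at 1.95 with limma-trend, 0.97 with the replicate block and ran from -1.17 to 2.17 on leaving out 1 library, 2.17 without EU replicate 1. Pde6c was at 0.20 with limma-trend and ran from -2.09 to 0.049. Gngt2 in P10 TRAP against EU ran from -0.19 to 1.26.

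In comparisons with 3 pairs, replicate numbers did not pair the libraries: none had every correlation of same-numbered deviations over 0.1. SC against LGN had only 2 pairs each, with r of 0.32 by EU and 0.35 to 0.41 by TRAP. The SC against LGN fits given above did not use this pairing, and no member was called there under any alternative. With the replicate block, members called went from 7 to 6 in both the SC EU and SC axon-TRAP comparisons with the eye, Gngt2 (adjusted p = 0.0835) and Cnga3 (adjusted p = 0.0681) losing their calls, and genes called from 3408 to 2551 and from 7567 to 4449. Over the alternatives, genes called ran from 0 to 1681 in FACS fmr1ko (6 in edgeR), 0 to 2123 in FACS against immunopanned EU (0), 0 to 8959 in FACS against immunopanned (0), 0 to 1678 in immunopanned EU against immunopanned (0), 950 to 6252 in SC EU against the eye (3408), 4449 to 10332 in SC axon-TRAP against the eye (7567), 0 to 3499 in SC EU fmr1ko (192) and 0 to 3350 in SC axon-TRAP fmr1ko (0). They ran from 727 to 4822 (2324) and 1162 to 4553 (2780) in TRAP against EU at P14 and P10, 18 to 2160 (406) and 0 to 833 (0) in P14 against P10 by EU and TRAP, 0 to 3360 (0) at 8 weeks, 0 to 1055 (1) for the chase, 964 to 10336 (6427) in sarm1ko, and 0 to 103 (0) and 0 to 70 (0) in SC against LGN by EU and TRAP. Groups of 3 libraries limit every ratio test to p of at least 0.1.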
